A study of Homo sapiens with 6 samples.

Results

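The immediate-early genes of the EGR, NR4A and IER families, together with BTG2, were examined in hepatocellular carcinoma cells that overexpress transketolase (TKT), an enzyme of the pentose phosphate pathway. The genes were chosen by symbol, and the list holds EGR1, EGR2, EGR3, NR4A1, NR4A2, NR4A3, IER2, IER3, IER5 and BTG2. All 10 were present among the 22077 gene symbols of the deposited count table. Of the 10 genes, 7 passed the filter on low counts and were tested, while EGR2, EGR3 and IER3 did not and are given as counts. BTG2 and NR4A3 were higher in TKT-overexpressing cells at the adjusted threshold, 1.43-fold and 2.59-fold. The call of BTG2 held in all 19 alternative settings. That of NR4A3 held in 9 of 17 and was lost in 5 of the 6 fits that each dropped 1 culture. DESeq2 gave NR4A3 no adjusted p and so made no call either way. EGR1, NR4A1 and IER2 were above control in every culture, as were 14.1% of all tested genes, without passing that threshold. NR4A2 and IER5 overlapped between the conditions.

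Immediate-early genes are transcribed within minutes of a growth factor, stress or calcium signal, from factors already present in the cell and without new protein synthesis. Serum response factor with its ternary complex partners, which ERK phosphorylates, and CREB bind the promoters of many of them, and their short-lived transcripts often carry AU-rich elements. EGR proteins are zinc finger activators, NR4A proteins are orphan nuclear receptors that act without a classical ligand and regulate glucose production in liver, IER proteins are products of immediate early response genes, and BTG2 is an antiproliferative protein that brings the CCR4-NOT deadenylase to mRNA. The study asked whether TKT acts through ERK signalling, and several of these genes are known to be induced by ERK.

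RNA was sequenced from 3 cultures overexpressing TKT and 3 control cultures, whose genotype is labelled wt. The labels name the cell line Hu7, the study's Results name Huh7, a human hepatocellular carcinoma line, and its Methods name HCCLM3 for the sequencing. According to the Methods the TKT plasmid was pTSB02-GFP-PURO, and transfected cells were selected; what the control cells received is not stated there, and no treatment or time point is given for either condition. The labels call the samples of each condition replicate biosamples, and nothing says that they came from separate transfections, so the p-values measure the spread between these samples.

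TKT itself averaged 9447.5 ± 88.0 CPM (counts relative to the total of each library, corrected by TMM factors; SD, n = 3) when overexpressed, against 494 ± 23.0 (SD, n = 3) for control, a 19.1-fold difference. The libraries held between 30148788 and 37096156 counts, and mitochondrial transcripts took 6.51% to 6.67% of the counts on overexpression and 6.53% to 6.83% in control. Of 13 liver markers, all were in the table, with summed levels of 24279 to 24902 CPM on overexpression and 23584 to 24482 CPM in control. APOB, a defining secreted protein of hepatocytes, had only 0 to 6 counts per library. Markers of other cells were low beside the liver markers, with 4 of 6 fibroblast markers in the table (1.81 to 3.08 CPM summed against 1.74 to 2.51), 2 of 4 endothelial markers (15.4 to 19.4 against 17.1 to 20.5) and 3 of 4 leukocyte markers (6.94 to 7.69 against 6.88 to 9.29). Nearly all of the endothelial sum was PECAM1 (15.3 to 20.5 CPM) and of the leukocyte sum CD14 (6.88 to 9.23 CPM). By the deposited FPKM values, which are scaled to gene length, PECAM1 (1.95 to 2.62) lay below BTG2 (3.25 to 5.29) and above NR4A1 (1.14 to 1.68). CD14 (4.13 to 5.55 FPKM) overlapped BTG2, so neither marker was low beside all members. The part of these markers in the results below was not tested. Over all 14162 genes tested, the median log2 fold change was 0.00082.

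The promoters of 4 of the genes are shown, which differ in the sequence elements through which immediate-early genes are known to be induced. NR4A1, which also did not overlap between the conditions, is not shown, and its windows held neither of the elements marked below. A link between these elements and the changes was not tested. Each line gives the 250 bases before the transcription start from RefSeq on GRCh38.p14, 5′ to 3′ on the plus strand, from chr1:203305269-203305518 for BTG2, chr9:99821635-99821884 for NR4A3, chr5:138465229-138465478 for EGR1 and chr19:13150161-13150410 for IER2. Capitals mark matches to the CArG box, which serum response factor binds, and to TGACG, the core of the cyclic AMP response element that CREB binds, on either strand, a match on the minus strand reading CGTCA.
BTG2: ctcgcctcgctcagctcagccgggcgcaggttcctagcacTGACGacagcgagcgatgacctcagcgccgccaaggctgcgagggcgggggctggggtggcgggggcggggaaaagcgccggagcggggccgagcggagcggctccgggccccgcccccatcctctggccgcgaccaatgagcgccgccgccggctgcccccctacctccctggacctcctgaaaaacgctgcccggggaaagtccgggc
NR4A3: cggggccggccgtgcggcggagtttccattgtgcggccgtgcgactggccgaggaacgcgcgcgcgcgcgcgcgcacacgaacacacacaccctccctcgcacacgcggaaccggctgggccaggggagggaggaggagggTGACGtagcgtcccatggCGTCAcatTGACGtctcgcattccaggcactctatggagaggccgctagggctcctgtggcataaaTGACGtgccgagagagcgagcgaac
EGR1: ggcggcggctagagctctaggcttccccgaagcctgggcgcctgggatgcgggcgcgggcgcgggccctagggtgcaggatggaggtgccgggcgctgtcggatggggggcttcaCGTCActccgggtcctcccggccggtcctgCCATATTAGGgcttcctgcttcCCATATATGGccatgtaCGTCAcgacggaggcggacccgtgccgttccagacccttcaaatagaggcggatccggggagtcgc
IER2: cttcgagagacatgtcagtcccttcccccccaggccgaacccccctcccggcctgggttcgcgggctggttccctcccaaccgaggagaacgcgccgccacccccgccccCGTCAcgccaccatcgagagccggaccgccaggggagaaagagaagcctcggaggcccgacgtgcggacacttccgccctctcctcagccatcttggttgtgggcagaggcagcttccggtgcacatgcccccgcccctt

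In these windows, EGR1 held 2 CArG boxes, 105 and 83 bases before the start, and 2 TGACG matches at 135 and 66 bases. NR4A3 held no CArG box and 4 TGACG matches, at 109, 91, 83 and 25 bases. BTG2 and IER2 held 1 TGACG match each, 210 and 140 bases before the start, and 3 matches each to GGGCGG, the box that SP1 binds. A promoter entry was present for 7 of the 10 genes, in 10 windows since some genes have several starts. The single window of IER5 and both windows of NR4A1 held neither a CArG box nor TGACG, while 1 of the 3 windows of EGR2 held 1 CArG box and 2 TGACG matches. The windows of NR4A1 end at 52022831 and 52037714, in a gene annotated up to 52059503. Any start further along was not searched, so the absence covers these windows only. Among 35116 promoter windows of the same length, 1.16% held a CArG box, 21.2% TGACG, 1.65% the full palindrome TGACGTCA, which overlaps TGACG, 10.7% TATAAA and 42.6% GGGCGG, all searched on both strands. None of the 10 windows held TGACGTCA or TATAAA. A match is a description of the letters and not a binding site.

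In control cells the deposited FPKM values, which are scaled to gene length and allow levels to be compared between genes, placed IER2 highest at 12.1 ± 1.41 FPKM (SD, n = 3). IER5 followed at 4.73 ± 0.178, then BTG2 at 3.35 ± 0.0918, NR4A2 at 1.78 ± 0.222, NR4A1 at 1.32 ± 0.163, EGR1 at 0.742 ± 0.110 and NR4A3 at 0.104 ± 0.0696 (SD, n = 3 for each). The ranges of neighbours in this order did not overlap from IER2 down to NR4A3. Below it NR4A3, EGR3 (0.0206 FPKM), EGR2 (0.0113 FPKM) and IER3 (0.00778 FPKM) overlapped one after the other. The tested members therefore ran from the 84.4th percentile of all genes in the table for IER2 to the 51.4th for EGR1 and the 32.6th for NR4A3, with the untested members below. On overexpression the order of the 7 tested genes by FPKM was the same, but BTG2 at 4.82 ± 0.405 FPKM then overlapped IER5 at 5.05 ± 0.325, which it had not in control cells.

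**Figure D1:**
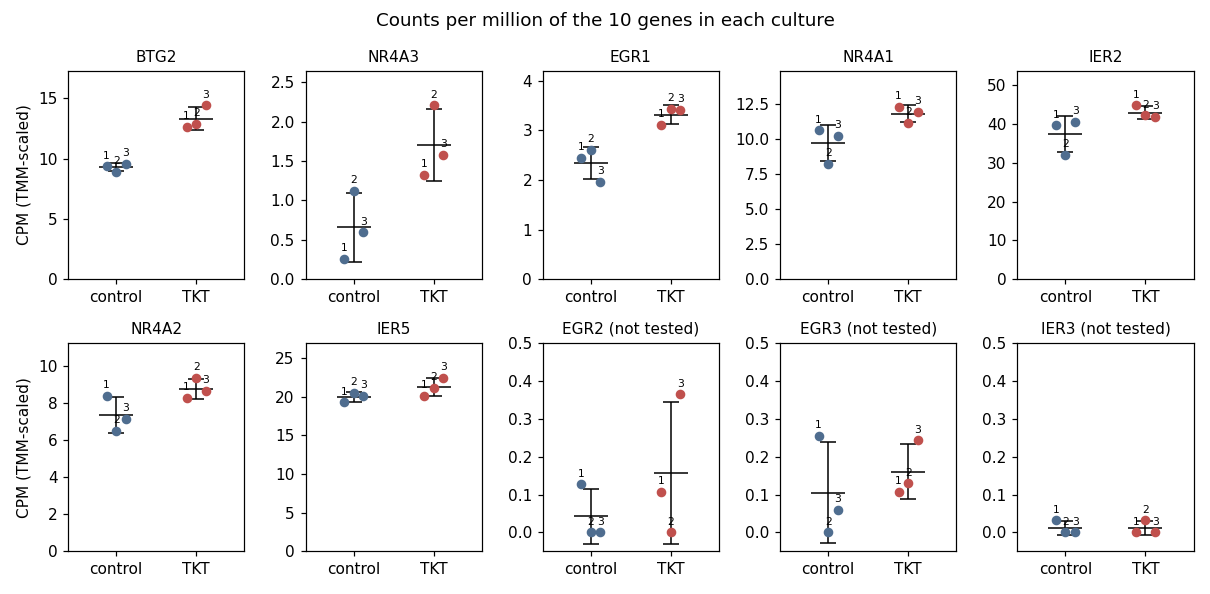
CPM of each of the 10 genes (vertical axis, from 0 in the tested genes, a scale of its own in each panel) in the 3 control cultures (blue) and the 3 TKT-overexpressing cultures (red), numbered by replicate; the long bar is the mean and the whiskers are the SD. BTG2, NR4A3, EGR1, NR4A1 and IER2 show no overlap between the conditions, where 14.1% of all tested genes were higher without overlap. The 3 genes at the lower right lie below 0.5 CPM in every culture.

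BTG2 lies on chromosome 1 from 203305519 to 203309602 on the plus strand (RefSeq, GRCh38.p14). It had 469, 397 and 474 counts in the TKT-overexpressing cultures 1 to 3 and 294, 271 and 321 in the control cultures, or 12.7, 12.9 and 14.4 CPM against 9.36, 8.92 and 9.57. All 3 overexpressing cultures lay above all 3 controls, and culture 3 was the highest in each condition. The means were 13.3 ± 0.959 and 9.28 ± 0.329 CPM (SD, n = 3). The log2 fold change was 0.52 (standard error 0.11, 95% interval 0.29 to 0.75, edgeR quasi-likelihood adjusted p = 0.00329), which placed BTG2 449th of the tested genes by p. It passed 0.05 in all 19 alternative settings, and its log2 fold change ranged from 0.46 to 0.55 over the fits that each dropped 1 culture. An exact two-sided permutation test of its 6 values gave p = 0.1, the smallest that 3 cultures against 3 allow, and the other genes without overlap reached the same value.

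The divergent transcript BTG2-DT, whose end lies 193 bases before BTG2 (chromosome 1, 203298758 to 203305325), had 14, 4 and 12 counts on overexpression and 0, 0 and 0 in control. It was picked out after its values were seen. The mean of 0.291 CPM was 3.08 times a floor of 3 counts per control library (0.0945 CPM), and overexpressing culture 2, at 0.130 CPM, lay near that floor. BTG2-DT was too low to be tested, and at this depth a control level below that floor would not be detectable. BTG1, the closest relative of BTG2 and also antiproliferative, stood at 0.32 on the log2 scale (edgeR adjusted p = 0.00162). It was the only 1 of 5 tested relatives of the members (8 listed, 6 in the table) that passed, 0 being lower. Among all tested genes, 5.69% were called higher and 4.94% lower. Of 8 partners of BTG2 in deadenylation, all tested, 0 were called in either direction by edgeR, with 0 higher and 2 lower at an unadjusted p under 0.05 and a median log2 fold change of -0.07. DESeq2 and limma-voom each called PABPC1, the cytoplasmic poly(A) binding protein, lower, at -0.09 (adjusted p = 0.00826 and 0.0373).

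NR4A3 (NOR1) lies on chromosome 9 from 99821885 to 99866891 on the plus strand. Its counts were 49, 68 and 52 on overexpression and 8, 34 and 20 in control, or 1.32, 2.20 and 1.58 CPM against 0.255, 1.12 and 0.596. Culture 2 was the highest in both conditions, and the distance between the highest control and the lowest overexpressing culture was small beside the range among the controls. The means were 1.70 ± 0.453 and 0.657 ± 0.435 CPM (SD, n = 3), and the log2 fold change was 1.37 (standard error 0.41, 95% interval 0.50 to 2.24, edgeR adjusted p = 0.0386). It was the member with the highest fold change and the lowest level among those tested, and it had at least 10 counts in 3 overexpressing libraries and 2 controls, so that the overexpressing group carried it through the filter. The call was lost with any culture except control 2 left out, at edgeR adjusted p between 0.0602 and 0.158. In these fits the log2 fold change lay between 0.99 (without control 1) and 1.52 (without overexpressing culture 1). Calls over all genes also fell in them, from 1505 to between 791 and 1197. How much of the loss came from having fewer cultures was not tested. With control culture 2 left out, the log2 fold change was 1.98 (edgeR adjusted p = 0.00394). DESeq2 gave no adjusted p for NR4A3 and no call.

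NR4A1 (NUR77), on chromosome 12 from 52022832 to 52059503 on the plus strand, had 457, 345 and 393 counts on overexpression and 334, 251 and 344 in control. In CPM these were 12.3, 11.2 and 11.9 against 10.6, 8.26 and 10.3, without overlap, and control culture 2 was the lowest. The log2 fold change was 0.28 (standard error 0.12, 95% interval 0.04 to 0.53), with an edgeR adjusted p of 0.146 (0.0271 before adjustment). Without control culture 2 it was 0.18 (edgeR adjusted p = 0.426). The annotation places 3 long noncoding genes over NR4A1, 1 of them NR4A1AS, and none of them is in the table under its symbol, so reads from them could not be told apart unless the counting used strand, which is not given in the sources used here.

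NR4A2 (NURR1), on chromosome 2 from 156324437 to 156332721 on the minus strand, had 8.28, 9.37 and 8.67 CPM on overexpression and 8.40, 6.52 and 7.15 in control. Control culture 1 lay above overexpressing culture 1, so the conditions overlapped. The log2 fold change was 0.25 (standard error 0.13, 95% interval -0.02 to 0.53, edgeR adjusted p = 0.265), and the exact two-sided permutation test gave p = 0.2. Among the retinoid X receptors and hepatic targets of NR4A proteins (8 listed, 7 in the table, 3 tested), 1 gene was called, where 5.69% of all tested genes were called higher. This was ENO3, the muscle-type enolase, with 968, 796 and 882 counts against 616, 528 and 655, or 0.48 on the log2 scale (edgeR adjusted p = 4.96e-04).

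EGR1, a zinc finger activator of growth and wound response genes, lies on chromosome 5 from 138465479 to 138469303 on the plus strand. It had 115, 106 and 112 counts on overexpression and 77, 79 and 66 in control, or 3.10, 3.44 and 3.41 CPM against 2.45, 2.60 and 1.97. The 3 overexpressing cultures lay close together and above each control, of which culture 3 was the lowest. The means were 3.31 ± 0.184 and 2.34 ± 0.331 CPM (SD, n = 3). The log2 fold change was 0.50 (standard error 0.21, 95% interval 0.07 to 0.94), with an edgeR adjusted p of 0.143 (0.0261 before adjustment). Its estimate was near that of BTG2 and its interval wider, at 66 to 115 counts per library. EGR1 did not pass an adjusted p of 0.05 in any of 18 alternative settings, where the adjusted p lay between 0.0842 and 0.373.

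EGR2 and EGR3 are relatives of EGR1 with the same zinc finger domain. EGR2, on chromosome 10 from 62811996 to 62819167 on the minus strand, had 4, 0 and 12 counts on overexpression and 4, 0 and 0 in control. EGR3, on chromosome 8 from 22687659 to 22693480 on the minus strand, had 4, 4 and 8 counts against 8, 0 and 2. Both overlapped between the conditions, and most of the EGR2 counts on overexpression came from culture 3. At these counts no difference was detectable.

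Of 14 co-repressors and targets of EGR1, all tested, 2 were called higher and 2 lower, with a median log2 fold change of 0.02. The shares over all tested genes were 5.69% higher and 4.94% lower. ICAM1, an adhesion molecule, had 0.18 (edgeR adjusted p = 0.00264) and FN1, fibronectin, 0.13 (edgeR adjusted p = 0.0358), while CDKN1A, the cell cycle inhibitor p21, had -0.54 (edgeR adjusted p = 0.00265). NAB1 and NAB2, which bind EGR proteins and repress them, stood at 0.03 and -0.19 on the log2 scale (edgeR adjusted p = 0.897 and 0.176).

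IER2, a nuclear protein, lies on chromosome 19 from 13150411 to 13154911 on the plus strand and was the most abundant member. Its counts were 1658, 1303 and 1374 on overexpression and 1244, 975 and 1363 in control, or 44.7, 42.2 and 41.8 CPM against 39.6, 32.1 and 40.6. The conditions did not overlap, but controls 1 and 3 came close to the overexpressing cultures and control 2 lay apart below them. The log2 fold change was 0.20 (standard error 0.07, 95% interval 0.04 to 0.35), with an edgeR adjusted p of 0.107 (0.0167 before adjustment). Without control culture 2 it was 0.10 (edgeR adjusted p = 0.366), and without control culture 3 it was 0.26 and passed (edgeR adjusted p = 0.0489).

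IER5, which takes part in the heat shock response, lies on chromosome 1 from 181088700 to 181092900 on the plus strand. It had 20.2, 21.1 and 22.5 CPM on overexpression and 19.3, 20.5 and 20.1 in control, with overlap. Its log2 fold change of 0.09 (standard error 0.09, 95% interval -0.09 to 0.27, edgeR adjusted p = 0.587) was the smallest among the tested members, and the interval leaves room for a change of up to 1.20-fold. Of 11 heat shock genes, 9 were tested, and 2 were called higher and 0 lower by edgeR, with 2 lower at an unadjusted p under 0.05. Over all tested genes, 5.69% were called higher and 4.94% lower. HSPB1, a small heat shock protein, had 0.21 (edgeR adjusted p = 0.00156) and BAG3, a co-chaperone, 0.20 (edgeR adjusted p = 0.0246), beside a median log2 fold change of -0.03 over the 9.

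**Figure D2:**
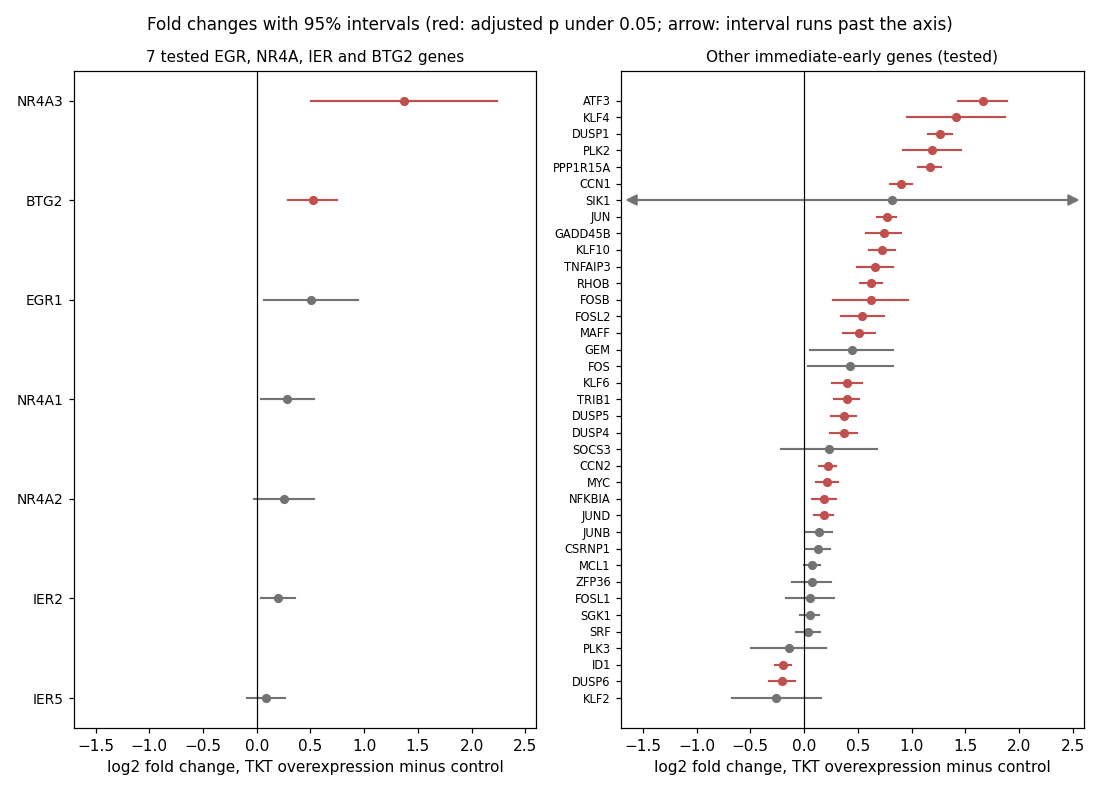
Log2 fold changes (TKT overexpression minus control, edgeR) with 95% intervals of the 7 tested members (left) and of 37 other immediate-early genes (right), in red where the adjusted p was under 0.05; the arrows mark an interval of SIK1 that runs past the axis. The 7 members run from 0.09 for IER5 to 1.37 for NR4A3, and 2 of them are red, where 5.69% of all tested genes were called higher.

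Of the 10 members, 7 were tested. BTG2 and NR4A3 were called higher, where 5.69% of all tested genes were, and 0 members lower, where 4.94% were. DESeq2 also called 0 lower, and 0 were lower at an unadjusted p under 0.05. NR4A3 was also over a log2 fold change of 1, a rule met upward by 0.699% of all tested genes. It had entered the test through its overexpressing group, so nothing is read from that share. The same holds for its part in the calls above and in the counts of members that follow, each of which includes it. The conditions did not overlap in 5 members, all higher, against 14.1% of all tested genes, and 5 members, all higher, had an unadjusted p under 0.05, against 11.8% of all tested genes that were higher by that rule. All 7 tested estimates were above 0, with a median log2 fold change of 0.28, where 50.2% of all tested genes were above 0. The 10 genes together took 0.01015% to 0.01064% of the counts of an overexpressing library and 0.00806% to 0.00898% of a control library. Control culture 2 was the lowest control in 4 of the 7 genes and the highest in 3, and overexpressing culture 1 was the lowest of its condition in 5.

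**Figure D3:**
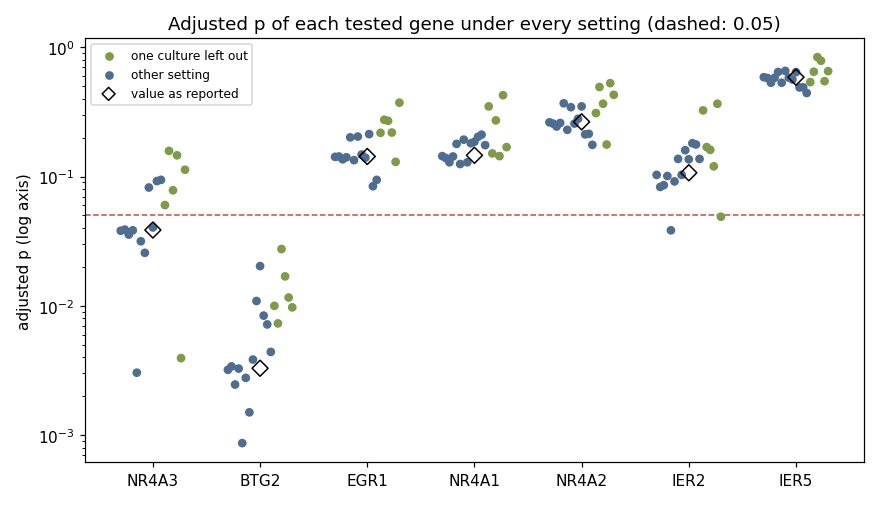
Adjusted p (log axis) of the 7 tested members in the edgeR fit as reported (diamonds), with 1 culture left out (green) and under every other setting (blue); the dashed line is 0.05. All points of BTG2 lie under the line, those of NR4A3 lie on both sides of it up to 0.158, and those of EGR1, NR4A1, NR4A2 and IER5 lie above it.

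Other immediate-early genes were read from the same fit as a list of 40, of which 39 were in the table and 37 were tested. Of these, 22 were called higher and 2 lower, where 5.69% and 4.94% of all tested genes were. The calls included 5 with a log2 fold change over 1, a rule met upward by 0.699% of all tested genes, and 13 genes did not pass. The median log2 fold change was 0.40, with 33 of 37 above 0. The list was written with earlier results of these data known, so its direction is no independent evidence.

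The 6 genes with the smallest p included feedback inhibitors and transcription factors. DUSP1, a phosphatase that switches off MAP kinases, had 3250, 2812 and 2808 counts on overexpression and 1190, 1080 and 1226 in control, or 1.26 on the log2 scale (edgeR adjusted p = 4.09e-13). PPP1R15A (GADD34), which restores translation after stress, had 5016, 4311 and 4323 counts against 1781, 1862 and 2114, a log2 fold change of 1.17. CCN1, a secreted matrix protein, had 4794, 3911 and 3969 counts against 2071, 2007 and 2334, a log2 fold change of 0.90. JUN, a subunit of AP-1, had 6289, 5387 and 5518 counts against 3166, 2961 and 3437, a log2 fold change of 0.77. ATF3, a stress-induced repressor, had 980, 796 and 839 counts against 254, 207 and 324 and a log2 fold change of 1.66, the highest in the list. RHOB, a small GTPase, had a log2 fold change of 0.62. Each of these exceeded the estimates of EGR1, NR4A1, NR4A2, IER2, IER5 and BTG2 (0.52), while NR4A3 (1.37) lay above all of them but ATF3. Since the 6 were picked by the smallest p, nothing is read from this order. No test of a difference between genes was made.

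The list was not uniform, since FOS had 140, 169 and 177 counts against 102, 102 and 142 and did not pass (log2 fold change 0.43, edgeR adjusted p = 0.172). ID1, an inhibitor of differentiation, and DUSP6, a phosphatase for ERK, were both lower at -0.20 (edgeR adjusted p = 0.00115 and 0.0283). SIK1, a kinase, had 948, 45 and 54 counts on overexpression and 38, 30 and 474 in control, so that 1 culture of each condition stood far from the rest and its log2 fold change of 0.81 (standard error 1.74) says little.

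The factors that drive immediate-early genes were read in their own transcripts, and 1 was called in each direction, near the shares over all tested genes (5.69% higher and 4.94% lower). Of 22 listed, 21 were in the table and 20 tested, and CREBBP, a histone acetyltransferase that CREB recruits, was higher (0.19, edgeR adjusted p = 0.0412) and RPS6KA4, the kinase MSK2, lower (-0.22, edgeR adjusted p = 0.0391). The median log2 fold change was 0.02, and SRF, which stands in this list and the previous one, had 0.04 (edgeR adjusted p = 0.751). Among 8 proteins that bind AU-rich elements, all tested, ZFP36L1, which promotes decay, was higher at 0.19 (edgeR adjusted p = 0.0197) and HNRNPD (AUF1) lower at -0.13 (edgeR adjusted p = 0.0227). Transcript levels do not report phosphorylation, which controls most of these proteins.

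The genes with profiles nearest to the members were found by the root mean square difference, over the 6 cultures, between a gene's log2 CPM centred on its own mean and the mean centred profile of the 7 tested members. Among 11227 genes the nearest included RND3 at 0.0366, PHLDA1 at 0.0426, RBP7 at 0.0451 and TUFT1 at 0.0458, against a median of 0.266. RND3, an atypical small GTPase, had 58.6, 63.3 and 66.1 CPM on overexpression and 41.3, 47.5 and 45.2 in control. PHLDA1, a pleckstrin homology-like protein induced by mitogens, had 68.6, 68.7 and 67.7 CPM against 47.2, 52.6 and 49.1. The likeness rests on 6 cultures, and much of it is the step between the conditions that these 4 genes share, at log2 fold changes of 0.46 to 0.51. The mean profile includes NR4A3 at 1.37, which had entered the test through its overexpressing group. The 4 genes lie above the median of 0.28 over the 7 members, so they are near the mean profile and not near each member.

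IER3 (IEX-1), a stress-induced protein that affects apoptosis, lies on chromosome 6 from 30743199 to 30744547 on the minus strand, where the antisense gene IER3-AS1 overlaps it. It had 0, 1 and 0 counts on overexpression and 1, 0 and 0 in control. Many neighbours of IER3 were near 0 too. Within 2 Mb on either side, 49 of 136 other protein-coding genes (36.0%) were in the table, against 725 of 912 (79.5%) on the rest of the chromosome and 76.1% of all protein-coding genes. Only 1 of the 136 (0.7%), AGPAT1, averaged at least 100 counts, against 446 (48.9%) on the rest of the chromosome.

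Genes of this region that most cells transcribe strongly were among those near 0, and they were picked after their values were seen. CSNK2B, the regulatory subunit of casein kinase 2, had 0, 0 and 0 counts on overexpression and 0, 0 and 1 in control, FLOT1, a membrane scaffold protein, had 0, 2 and 0 against 2, 2 and 0, and TUBB, a beta tubulin, had 25, 21 and 19 against 21, 18 and 23. ABCF1, a translation factor, had 2, 0 and 0 counts on overexpression and 155, 0 and 125 in control. HSPA1A and HSPA1B, the inducible HSP70 genes in the same region, had at most 2 counts in any library. The counts of IER3 therefore cannot be read as a lack of its transcript, and the reason for the low counts of the region was not tested.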

How the data were processed

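RNA-seq was analysed for 3 TKT-overexpressing and 3 control cultures. Per the Methods and the submitters' processing notes, the authors trimmed 150-base paired reads with fastp 0.22.0, aligned them to hg38 with HISAT2 2.1.0 and summarised them by gene with featureCounts; the strand and multi-mapping options and the annotation are not given in the sources used here. The deposited counts are whole numbers per gene symbol without normalization. A second deposited table gives FPKM, which the authors scaled for gene length and library size. No gene length is in the tables.

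Counts were fitted with edgeR 4.0.16 in R 4.3.3 (filterByExpr with a minimum count of 10, TMM, robust quasi-likelihood test, no covariate), and p-values were adjusted by Benjamini-Hochberg over all 14162 genes tested. Calls were made at an adjusted p under 0.05, with an absolute log2 fold change over 1 as a second rule, which is the study's. Exact permutation tests used log2(CPM + 0.1). FPKM were used for levels between genes. Totals ran from 30148788 to 37096156 counts, 3 counts per library served as the floor, and edgeR's common biological coefficient of variation was 0.113. Such intervals cover counting error and the spread between cultures only. Alternatives were DESeq2 1.42.0, limma-voom and limma on FPKM (limma 3.58.1), other scalings and filters, non-robust dispersions, TKT left out, a replicate block, each culture left out and an adjusted p under 0.01.

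No pair of libraries looked like copies, since the chi-square per degree of freedom was 7.25 to 9.99 within a condition and 31.1 to 38.6 between conditions. Scripts were tested on simulated counts.

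The members, the lists and the tests were chosen with earlier results of these data known. By rule the genes named are the members, TKT, up to 6 called genes with the smallest p in each list, the 5 genes with the nearest profile, and genes overlapping a member. Named outside it, after their values were seen, are BTG2-DT, FOS, ID1, DUSP6, SIK1, TNFAIP3, GADD45B, KLF4, KLF10, PLK2, SRF, NAB1, NAB2, PABPC1, APOB, PECAM1, CD14 and the neighbours of IER3. Genes that this rule names and the text does not are not reported here.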

Additional observations from a re-analysis of the deposited data

How the results depend on the processing

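BTG2 was past an adjusted p of 0.05 in all 19 alternatives, at log2 fold changes of 0.42 to 0.55, and no member changed sign in any. NR4A3 was not past 0.05 without robust dispersions (1.37, adjusted p = 0.0823) or with limma on log2(FPKM + 1) (0.20, adjusted p = 0.0923) and log2(FPKM + 0.1) (0.90, adjusted p = 0.0943), scales that understate changes of low genes. With each culture left out it lay between 0.99 and 1.98 and passed in 1 of 6 fits. IER2 was past 0.05 with no filter on low counts (0.20, adjusted p = 0.0384), and ranged from 0.10 to 0.26 with a culture left out.

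The number of members called higher was 1 with DESeq2, without robust dispersions, with the 3 limma fits on FPKM and at an adjusted p under 0.01, was 3 with no filter, and was 1 to 2 with a culture left out. Over all genes, edgeR called 1505, against 827 with log2(FPKM + 1), 826 with log2(FPKM + 0.1), 679 at an adjusted p under 0.01 and 791 to 1586 with a culture left out. The 103 calls over a log2 fold change of 1 became 160 with no filter, 63 with DESeq2, 13, 66 and 14 with limma on log2(FPKM + 1), on log2(FPKM + 0.1) and on log2(FPKM + 1) at a mean FPKM of at least 1, 56 at an adjusted p under 0.01 and 74 to 128 with a culture left out. Of 304 list counts under the alternatives, 235 stayed within 1.5 times the reported count. No scaling moved the median of all genes by over 0.0124 (log2).

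Cultures of the 2 conditions share replicate numbers, but same-numbered cultures did not deviate together (correlations of 0.0106, -0.0937 and 0.0525 over 11233 genes). No overexpressing culture correlated best with its own number, and of the controls only culture 3 did. The highest correlations were 0.146 (overexpressing culture 2 with control 1) and 0.121 (overexpressing culture 3 with control 2). A pairing under other numbers was not tested. With the replicate block, 697 genes were called, 67 of them over a log2 fold change of 1, and 2 members were higher.

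DESeq2 gave NR4A3 no adjusted p, the mean FPKM filter left out EGR1 and NR4A3, and levels from CPM divided by gene length were not run since no length is in the tables. EGR2, EGR3 and IER3 were not tested in the reported fit. The cause of these changes was not tested.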

Other observations

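TNFAIP3 and GADD45B, which NF-kappa B induces and which restrain inflammatory signalling and cell death, were among the other immediate-early genes called higher. TNFAIP3 had 1077, 839 and 934 counts on overexpression and 535, 557 and 608 in control, or 0.66 on the log2 scale (edgeR adjusted p = 6.91e-06). GADD45B had 1271, 986 and 1118 counts against 642, 557 and 713, or 0.74 on the log2 scale (edgeR adjusted p = 9.63e-07). KLF4 and KLF10, zinc finger factors, had log2 fold changes of 1.41 and 0.72 (edgeR adjusted p = 1.63e-04 and 1.32e-08). PLK2, a polo-like kinase, had 427, 404 and 370 counts against 156, 149 and 195, or 1.19 on the log2 scale (edgeR adjusted p = 1.61e-06). None of these genes overlapped between the conditions, where 14.1% of all tested genes were higher without overlap. All were named after their values were seen.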
